A study of Mus musculus with 4 samples.

Results

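Open chromatin at the loci of 3 melanocyte transcription factors, Mitf, Sox10 and Pax3, was described in B16-F10 cells, an established mouse melanoma cell line. The loci were fixed as windows of the GRCm39 build, from 97.73 to 98.05 Mb of chromosome 6 for Mitf, from 78.98 to 79.11 Mb of chromosome 15 for Sox10 and from 78.03 to 78.22 Mb of chromosome 1 for Pax3. Every peak call that overlapped a window was taken, and overlapping calls of different libraries were joined to give 76 union regions out of 72251 in the genome. The Mitf window held 29 of them, the Sox10 window 20 and the Pax3 window 27.

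The assay was ATAC-seq, which uses the Tn5 transposase to cut and tag DNA that is not covered by nucleosomes. Per the labels, 2 libraries are wild type for Ssbp4 and 2 are knockout, and all come from the same line grown in the same medium without any further treatment. Ssbp4 encodes a single-stranded DNA-binding protein that partners the LIM-domain-binding transcription cofactors. The knockout was made by electroporating Cas9 with a mixture of guides, and the named control guide cuts between genes on chromosome 2. The labels do not say whether the knockout cells are 1 clone or a pool, whether the wild-type cells received the control guide, or whether the replicates were separate cultures, and the spread between replicates may be technical only. The knockout itself was not checked from the peak lists.

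MITF, a basic helix-loop-helix leucine zipper protein, is the central regulator of the melanocyte lineage and switches on pigment enzymes and survival genes. SOX10, an HMG-box factor of the neural crest, and PAX3, which carries a paired domain and a homeodomain, act upstream of it and both bind the Mitf promoter that is used in melanocytes. Mitf has several start sites, and the melanocyte start is the most downstream of those known. The comparison asks whether open regions at these loci differ between cells with and without Ssbp4.

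The RefSeq promoter table, on build GRCm38, held 3 start sites of Mitf. No promoter of Sox10 or Pax3 is printed. The most downstream start is shown because the melanocyte start is the most downstream one known, and the most upstream start is shown beside it for comparison, each as 250 bases before and 50 after the start, 5′ to 3′, with capitals for a homeodomain core, TAATTA, and a cAMP-response element, TGACGTCA.
Mitf start 1: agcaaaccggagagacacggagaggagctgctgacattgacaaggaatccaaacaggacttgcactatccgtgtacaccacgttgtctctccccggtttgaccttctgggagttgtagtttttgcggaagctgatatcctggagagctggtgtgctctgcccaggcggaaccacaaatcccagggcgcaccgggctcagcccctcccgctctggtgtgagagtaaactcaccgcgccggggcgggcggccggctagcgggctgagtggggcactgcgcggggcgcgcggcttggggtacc
Mitf start 3: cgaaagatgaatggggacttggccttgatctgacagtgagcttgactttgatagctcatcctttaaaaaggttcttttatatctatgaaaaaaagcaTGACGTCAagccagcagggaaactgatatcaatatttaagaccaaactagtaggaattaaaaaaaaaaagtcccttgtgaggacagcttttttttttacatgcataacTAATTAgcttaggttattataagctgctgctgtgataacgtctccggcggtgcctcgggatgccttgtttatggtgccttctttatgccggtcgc

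Start 3 held 1 TAATTA and 1 TGACGTCA, and neither occurred at start 1 or start 2. Among all 32851 promoters of the table, 5.29% held TAATTA and 1.79% held TGACGTCA on either strand. The element TGACGTCA was added to the search after the sequence was seen. None of the 3 Mitf promoter sequences held the letters of the E-box CACGTG (7.15% of promoters) or the M-box TCATGTG (3.77%). They also held neither SOX site, ACAAAG (18.7%) or ACAATG (12.6%), and no AP-1 site TGACTCA (5.20%). GC content was 62.7% at start 1, 55.7% at start 2 and 40% at start 3. A match describes letters and not a bound site. Because the peak lists are on another build, no call was placed on these promoters and regions are named by their GRCm39 position.

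The windows held 65 and 64 calls in wild-type replicates 1 and 2 and 60 and 62 in knockout replicates 1 and 2, out of lists of 50068 to 63080 calls. Read numbers were not used. Every call has the authors' fold enrichment at its summit, which is the pileup of reads over the local background, and the −log10 p of that pileup. The 2 knockout libraries had lower folds throughout the genome: taking the 44000 regions that all 4 libraries called, the median fold was 5.12 and 6.01 in knockout libraries and 7.45 and 8.28 in wild-type libraries. Folds are therefore given with a rank, the percentile of a region by its −log10 p among those same 44000 shared regions of the genome, taken in each library by itself. With 2 libraries a genotype, the smallest two-sided exact permutation p is 0.33, so no test was made and every difference below is a description of these 4 libraries.

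Of the 76 member regions, 50 were called in all 4 libraries, or 65.8% against 60.9% of all regions of the genome. Only 5 members were lost, that is called in both wild-type libraries and in neither knockout library, against a background of 7.09%. In the other direction 1 member was gained, called in both knockout libraries and in neither wild-type library, against a background of 1.52%. Over the 3 loci together, the shares of lost and gained regions were thus 6.58% and 1.32%, close to those of the genome. Shares by locus are given below. The remaining 20 members were called in 3 libraries (8 regions), in 1 library of each genotype (3 regions) or in a single library (9 regions).

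**Figure D1:**
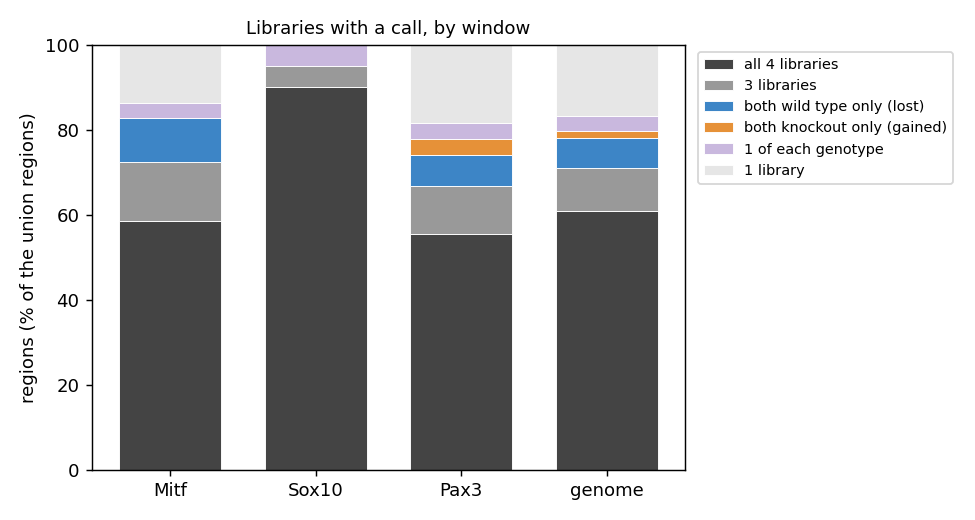
Share of the union regions (vertical axis, percent) called in all 4 libraries, in 3, in both of 1 genotype, in 1 of each, or in 1, for the 29 regions of the Mitf window, 20 of Sox10, 27 of Pax3 and the 72251 of the genome. The Sox10 bar is 90% shared and has no lost, gained or single-library region, and the Mitf and Pax3 bars are close to the genome's 60.9%.

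Calls of a shared region overlap by the way regions were joined, so only their summits can differ in place. The summits of the 4 libraries lay within 100 bp of each other in 37 of the 50 shared members. Their median spread was 53 bp and the largest 798 bp, and the same count was not made over the genome. The 26 members that were not shared were weak calls. Their percentile within the full list of a library ranged from 0.133 to 40.8, below the median of every list that held them, and their folds ranged from 1.70 to 5.21. These values were not taken over the unshared regions of the genome, so they cannot be read as particular to these loci.

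**Figure D2:**
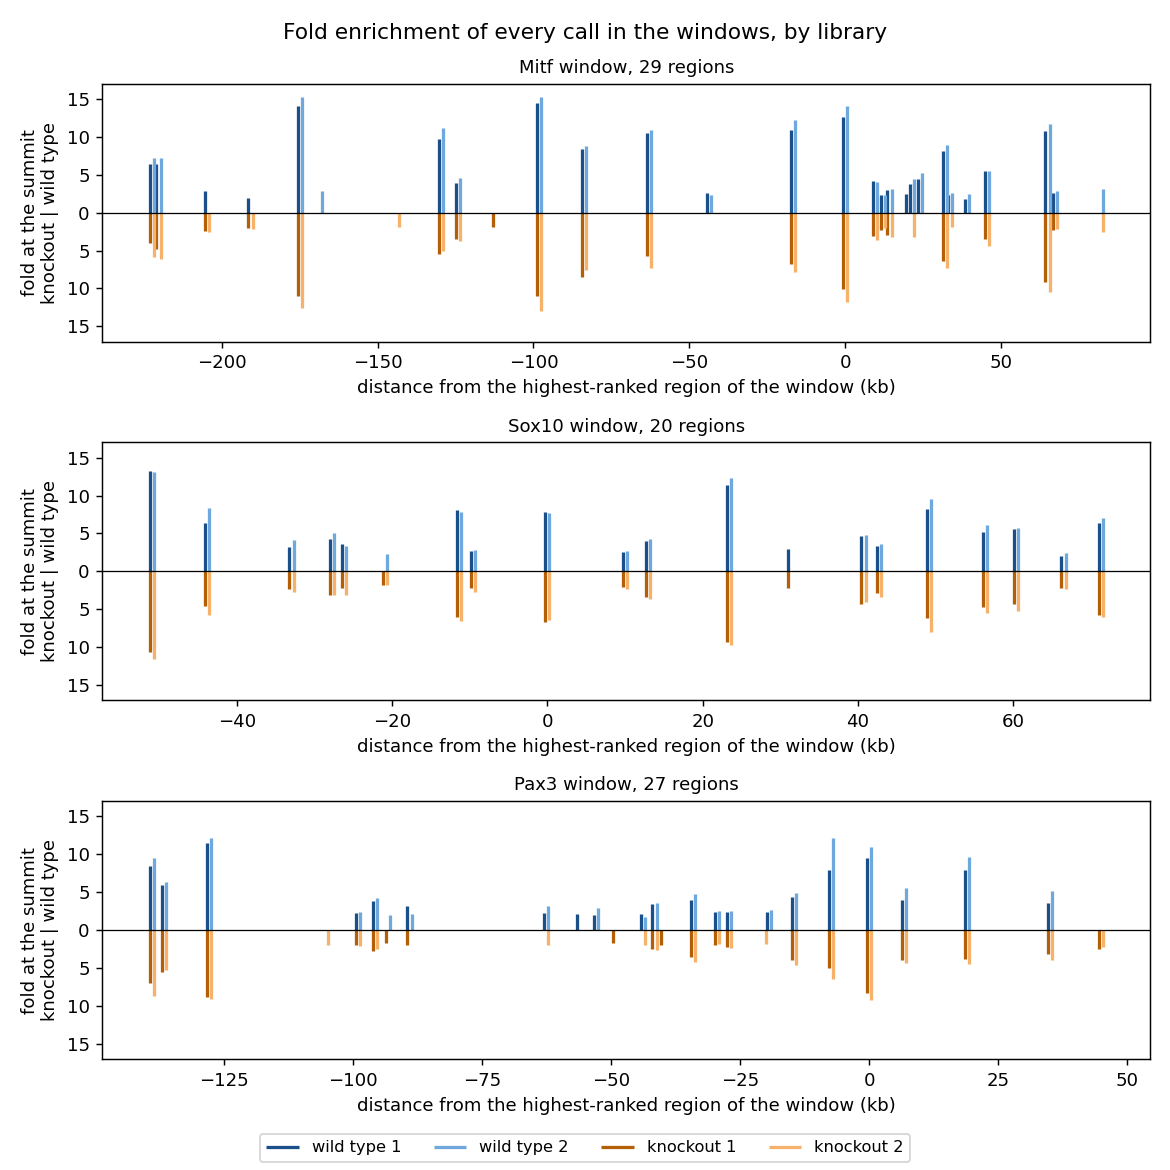
Fold enrichment of every call of the 3 windows (vertical axis, authors' fold at the summit, wild type upwards and knockout downwards, 1 line per library) against distance from the highest-ranked region of the window (kb). The tallest lines stand at the same places above and below the axis, and the knockout lines are shorter at most of them.

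At the upstream factor Sox10, nearly all open regions were called in every library. Lost and gained regions both numbered 0, against 6.76% and 1.96% of the regions of chromosome 15. Of its 20 regions, 18 (90%) were called in all 4 libraries, against 59.1% of the 3726 regions of chromosome 15. Of these 18, 61.1% ranked above the 50th percentile in all 4 libraries, against 44.6% of the shared regions of the genome. The part of this signal strength in the 90% was not tested. The nearest protein-coding neighbours of Sox10 in the RefSeq table are Polr2f, a subunit of RNA polymerase II, and Pick1, so not every region of this window can be assigned to Sox10. The highest-ranked region, chr15:79036130-79037821, had folds of 7.82 and 7.68 in the wild-type and 6.65 and 6.39 in the knockout libraries. Its rank was at the 97.7th and 96.3rd percentile in wild type against at the 95.7th and 92.5th in the knockout, so both knockout libraries lay below both wild-type libraries, with a difference of the means of −2.91 points (−1.28 without knockout replicate 2). When ranks were taken from the fold in place of the p-value, this region was instead 10.1 points higher in the knockout. Its local background was 23.3 and 23.2 times the genome-wide level in wild type against 13.9 and 14.4 times in the knockout, and the part of that background in the reversal was not tested.

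The leading regions of each window were chosen by the lowest of their 4 ranks, which favours regions that are high in every library, so their nearness in rank is no sign of stability. The region chr15:78985332-78986763 had folds of 13.2 and 13.0 in wild type against 10.6 and 11.5 in the knockout, and ranks of 93.7 and 90.1 against 92.5 and 92.2. The genotypes overlapped in that rank, and the summits of the 4 libraries fell on the same base. The region chr15:79059551-79061235 had folds of 11.4 and 12.4 against 9.25 and 9.69. Its ranks were 91.4 and 91.4 in wild type against 89.5 and 88.2 in the knockout, so the knockout libraries lay below, although by fold its rank was 1.73 points higher.

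Outside the rule for named regions, the widest of all 76 was also in this window and is given because of its length. It is chr15:79048443-79051509, 3067 bp long, with folds of 3.98 and 4.22 in wild type against 3.40 and 3.69 in the knockout. Its ranks were 78.9 and 77.9 against 76.8 and 76.0, both knockout values below both wild-type values.

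Among the 18 shared Sox10 regions, 6 (33.3%) ranked lower in both knockout libraries than in either wild-type library, against 26.7% of the shared regions of the genome. Another 3 (16.7%) ranked higher in both, against 32.2% of the genome, and 9 overlapped. On chromosome 15 the shares were 28.7% lower and 30.2% higher. With ranks taken from the fold the balance turned over, with 2 lower and 11 higher, against 27.4% and 34.5% of the genome. Ranked by −log10 p, the differences ran from −5.63 to 8.09 percentile points with a median of −0.40. The lowest belonged to chr15:79003529-79004471, with folds of 3.26, 4.20, 2.29 and 2.68 in wild-type replicates 1 and 2, then knockout replicates 1 and 2. Its ranks were 11.2, 18.3, 8.10 and 10.2, so wild-type replicate 1 was nearer to the knockout than to its own replicate, and the difference of −5.63 became −2.32 without wild-type replicate 2, −9.47 without wild-type replicate 1 and −1.07 with ranks of the recovered pileup.

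The highest change of the window belonged to chr15:79103071-79103832, with folds of 2.09, 2.48, 2.13 and 2.37 in the same order. Its ranks were 10.6, 16.3, 22.0 and 21.2, both knockout libraries above both wild-type libraries. The difference of 8.09 points was 5.17 without wild-type replicate 1, 4.93 by recovered pileup and 1.69 by fold.
The only weakly held region named here, chr15:79015611-79016476, was called in wild-type replicate 2 (fold 2.34) and in both knockout libraries (1.85 and 1.83). The second region that was not shared was called in 1 library of each genotype.

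At Pax3, 15 of 27 regions (55.6%) were shared, against 57.0% on chromosome 1. Lost regions numbered 2 (7.41%), against 9.14% of chromosome 1 and 7.09% of the genome. A single region was gained (3.7%), against 2.11% of chromosome 1 and 1.52% of the genome. The highest-ranked region, chr1:78172875-78174690, had folds of 9.46 and 11.02 in wild type against 8.24 and 9.21 in the knockout. Its ranks of 87.9 and 89.4 against 88.4 and 87.5 overlapped, with a difference of −0.64 points, and the summits of all 4 libraries fell on the same base. With ranks by fold the difference was instead 8.17 points. Of the 15 shared Pax3 regions, 0 were above the 90th percentile in every library, as were 2 of 18 at Sox10, 3 of 17 at Mitf and 8.46% of the 44000 shared regions of the genome.

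The neighbouring region chr1:78165709-78167137 had folds of 7.91 and 12.1 in wild type against 5.02 and 6.45 in the knockout. Its ranks were 83.5 and 95.0 in wild type against 74.1 and 78.2 in the knockout, so the genotypes did not overlap. The wild-type replicates themselves were 11.5 points apart, the widest gap between wild-type replicates among the 50 shared members. Its mean rank in wild type, 89.3, was the highest of the window. The mean difference of −13.1 points was −7.27 without wild-type replicate 2.

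The third leading region, chr1:78034281-78035488, overlapped between genotypes, with folds of 8.52, 9.58, 6.97 and 8.72 and ranks of 80.0, 80.4, 80.2 and 82.1 in wild-type replicates 1 and 2, then knockout replicates 1 and 2. Its difference of 0.95 points was 10.6 with ranks by fold.

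The region chr1:78192287-78193090 had the lowest ratio of knockout to wild-type fold of all 50 shared members. Its folds were 7.91 and 9.60 in wild type against 3.80 and 4.44 in the knockout, a ratio of 0.471 between the genotype means, where the median ratio of the genome was 0.775. Its ranks were 39.2 and 42.2 against 24.7 and 24.0, a difference of −16.3 points. That difference stayed between −25.3 and −14.7 in every alternative that gave it, left-out libraries included. The summit pileups, not scaled for depth, were 123 and 154 in wild type against 68 and 81 in the knockout, a ratio of 0.538 between the means. Over all shared regions of the genome the median pileup was also lower in the knockout, 139 and 173 against 197 and 231. The pileup ratio was lower still at chr1:78165709-78167137 (0.416) and chr6:97828568-97829561 (0.455). The local background of chr1:78192287-78193090 was at the genome-wide level of each library, which was itself higher in the knockout (17.2 and 17.4 against 14.7 and 15.1). Both its pileup and its background thus differed in the direction of the lower fold.

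The opposite change was largest at chr1:78179726-78181168. Its folds were 4.02, 5.51, 3.96 and 4.39 and its ranks 10.9, 18.6, 27.1 and 23.4 in wild-type replicates 1 and 2, then knockout replicates 1 and 2. Both knockout libraries ranked above both wild-type libraries, by 10.5 points in the mean and by 6.54 without wild-type replicate 1. The fold was not higher in the knockout. Over the 15 shared Pax3 regions, 6 (40%) ranked lower in both knockout libraries and 4 (26.7%) higher, against 32.7% and 25.2% of the shared regions of chromosome 1. Over the genome the shares were 26.7% lower and 32.2% higher.

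Both lost Pax3 regions were among the weak calls. At chr1:78120161-78121451 the wild-type folds were 1.98 and 2.95, at the 1.44th and 14.0th percentile of the lists. At chr1:78153936-78154665 they were 2.40 and 2.64, at the 14.5th and 18.4th percentile. The second of these lay 192 bp from chr1:78153176-78153743, which was called in knockout replicate 2 alone with a fold of 1.88, so a call of that library ended close to it.
The gained region, chr1:78218239-78218979, had folds of 2.48 and 2.28 in the knockout libraries, at the 11.4th and 7.44th percentile of their lists.

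The Pax3 regions called in 3 libraries were absent once from knockout replicate 2 and otherwise from knockout replicate 1. The first was chr1:78084379-78085084, with folds of 3.16 and 2.17 in wild type against 1.99 in knockout replicate 1. The others were chr1:78110328-78111873, with 2.30, 3.22 and, in knockout replicate 2, 2.01, and chr1:78129393-78130387, with 2.09, 1.70 and 1.92. The regions called in 1 library were chr1:78117255-78117819 in wild-type replicate 1, chr1:78124250-78124908 and chr1:78133404-78134126 in knockout replicate 1, and chr1:78068120-78068797 and the region already named in knockout replicate 2. Their folds were 2.12, 1.75, 1.99, 1.97 and 1.88 in that order.

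At Mitf, 3 regions were above the 90th percentile in every library, and other regions differed in rank in both directions. Of 29 regions, 17 (58.6%) were shared, against 53.0% of the regions of chromosome 6. Lost regions numbered 3 (10.3%), against 4.27% of chromosome 6 and 7.09% of the genome. Gained regions numbered 0, where chromosome 6 as a whole had a gained share of 3.24%, above the 1.52% of the genome. The highest-ranked region of all 50 shared members, by the lowest of its 4 ranks, was chr6:97958049-97959541. Its folds were 12.7 and 14.0 in wild type against 10.0 and 11.8 in the knockout, and the 4 summits fell on the same base. Its ranks of 97.7 and 97.6 against 97.0 and 97.2 did not overlap and differed by −0.61 points, and by fold its rank was 1.03 points higher.

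The region chr6:97783126-97784661 had folds of 14.0 and 15.3 in wild type against 11.1 and 12.6 in the knockout. Its ranks were 93.9 and 93.9 against 93.8 and 94.0, within 1 point of each other in all 4 libraries, with a difference of 0.04 points that was −1.46 by fold. The region chr6:97860058-97860960 had folds of 14.5 and 15.2 against 10.9 and 13.0, and its ranks of 93.0 and 92.0 against 91.4 and 92.3 overlapped.

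**Figure D3:**
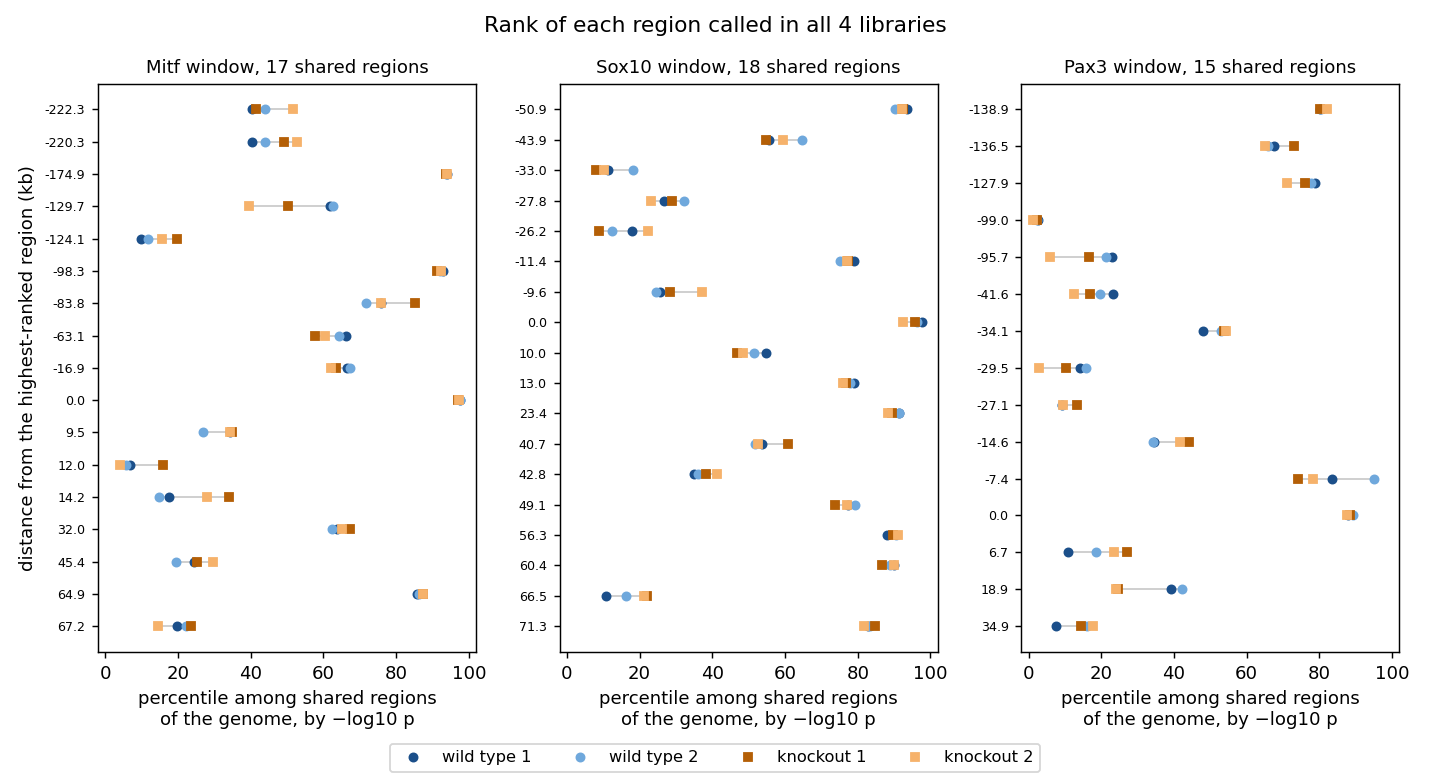
Percentile of each shared region among the 44000 shared regions of the genome (horizontal axis, by −log10 p, circles for wild type and squares for knockout, 1 symbol per library), with regions ordered by position and labelled by distance from the highest-ranked region (kb). Among the regions whose symbols stand apart, the knockout is lower at the Mitf region with wild-type values of 61.8 and 62.6 beside 50.4 and 39.6. It is also lower at the Pax3 region with 39.2 and 42.2 beside 24.7 and 24.0. The knockout is higher at the Mitf region with wild-type values of 17.5 and 14.9 beside 34.1 and 27.9.

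The region chr6:97828568-97829561 had the most negative difference of rank, knockout minus wild type, among the 50 shared members. Its folds were 9.66 and 11.1 in wild type against 5.50 and 5.09 in the knockout. Its ranks were 61.8 and 62.6 against 50.4 and 39.6, a difference of −17.2 points that stayed between −22.0 and −11.5 in the alternatives. The wild-type libraries nearly coincided and the knockout libraries did not.

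On the downstream side of the leading region, with 2 other shared regions between them, chr6:97972354-97973648 had the most positive difference of rank among them. Its folds were 2.999 and 3.053 in wild type against 3.02 and 3.17 in the knockout. It was the only one of the 50 shared members whose mean fold was higher in the knockout (ratio 1.02), as 1595 of the 44000 shared regions of the genome were. Its ranks were 17.5 and 14.9 in wild type against 34.1 and 27.9 in the knockout, a difference of 14.8 points, with 9.56 by fold and 11.6 by recovered pileup.

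Some other Mitf regions are named outside the rule, after their values were seen. The region chr6:97874103-97875889 had nearly the same fold in both genotypes, 8.40 and 8.78 in wild type against 8.47 and 7.62 in the knockout, with ranks of 75.8 and 71.6 against 85.2 and 76.0. By contrast, chr6:97894959-97896527 had folds of 10.5 and 10.9 against 5.69 and 7.30 and ranks of 66.2 and 64.2 against 57.7 and 60.3. The region chr6:97941251-97942592 went the same way, with folds of 10.8 and 12.1 against 6.83 and 7.80 and ranks of 66.6 and 67.4 against 63.6 and 62.0. In all, 7 of the 17 shared Mitf regions (41.2%) ranked higher in both knockout libraries and 4 (23.5%) lower, against 32.7% and 26% on chromosome 6. Over the genome the shares were 32.2% higher and 26.7% lower.

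A run of short calls lay on the downstream side of the leading Mitf region. The first, chr6:97978666-97979024, was called in wild-type replicate 1 alone with a fold of 2.42 and a length of 359 bp. After a gap of 1023 bp followed chr6:97980048-97980562, with folds of 3.79 and 4.45 in wild type against 3.20 in knockout replicate 2 and no call in knockout replicate 1. After a further 2020 bp came chr6:97982583-97982956, a lost region with folds of 4.48 and 5.21, at the 34.7th and 40.8th percentile of the wild-type lists. It had the highest list percentile of the 26 members that were not shared.

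These calls were short. The calls of the lost region were 372 and 367 bp long, and those of its neighbour 358, 357 and 490 bp. Knockout replicate 1 had no call shorter than 380 bp anywhere, and the shortest of knockout replicate 2 was 338 bp. Calls under 380 bp made up 4.62% and 8.69% of the wild-type lists and 4.76% of that of knockout replicate 2. A call of the wild-type length could thus have been listed in knockout replicate 2 but has no counterpart in the list of knockout replicate 1, and the part of this limit in the loss was not tested.

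The other lost Mitf regions were near the bottom of the lists. At chr6:97914794-97915518 the wild-type folds were 2.62 and 2.29, at the 6.66th and 2.76th percentile. At chr6:97997216-97998362 they were 1.84 and 2.50, at the 0.532nd and 8.59th percentile.

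The Mitf regions called in 3 libraries were absent from either genotype. The regions chr6:97753691-97754456 (folds 2.81, 2.42 and 2.60) and chr6:97767440-97768604 (1.91, 2.04 and 2.17) had no call in wild-type replicate 2. Besides the short call already described, chr6:97992060-97992814 (2.28, 2.53 and 1.93) had none in knockout replicate 1. Calls in a single library were those of chr6:97790125-97790703 in wild-type replicate 2 (fold 2.85), chr6:97814869-97815332 in knockout replicate 2 (1.95) and chr6:97846220-97847078 in knockout replicate 1 (1.93).

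Set side by side, folds at the 3 loci were mostly lower in the knockout, as over the genome. In 39 of the 50 shared members (78.0%) the fold was lower in both knockout libraries than in either wild-type library. Over the shared regions of the genome the share was 84.1%. By locus it was 88.2% at Mitf, 77.8% at Sox10 and 66.7% at Pax3. The fold was higher in both in 0 of 50, against 1.13% of the genome. The median ratio of knockout to wild-type fold was 0.807 at Mitf, 0.843 at Sox10 and 0.852 at Pax3, each above the 0.775 of the genome. The fold is taken over the local background, whose median over shared regions was 3.03, 3.04, 2.59 and 2.51 times the genome-wide level at Mitf in wild-type replicates 1 and 2, then knockout replicates 1 and 2. At Sox10 it was 6.08, 5.998, 4.59 and 5.06 times, at Pax3 3.11, 3.23, 2.24 and 2.11 times, and over all shared regions 1.73, 1.77, 1.51 and 1.59 times. These backgrounds, relative to the genome-wide level, were lower in the knockout at each locus, and their part in the folds was not tested.

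In rank, 16 of the 50 shared members (32.0%) were lower in both knockout libraries, against 26.7% of the genome, and 14 (28.0%) were higher, against 32.2%. The median change was 3.15 percentile points at Mitf, −0.40 at Sox10 and −0.57 at Pax3, where the genome had 0.41. Changes ranged from −17.2 to 14.8 at Mitf and from −16.3 to 10.5 at Pax3, a wider range than at Sox10. Replicates of 1 genotype differed by a median of 1.82 points in wild type against 3.13 in the knockout, and by up to 13.5 points in the knockout. Of the 50 differences, those of 3 regions (6%) were larger than every such gap, against 7.87% of the shared regions of the genome past the same size. They were the Mitf regions with −17.2 and 14.8 and the Pax3 region with −16.3.

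**Figure D4:**
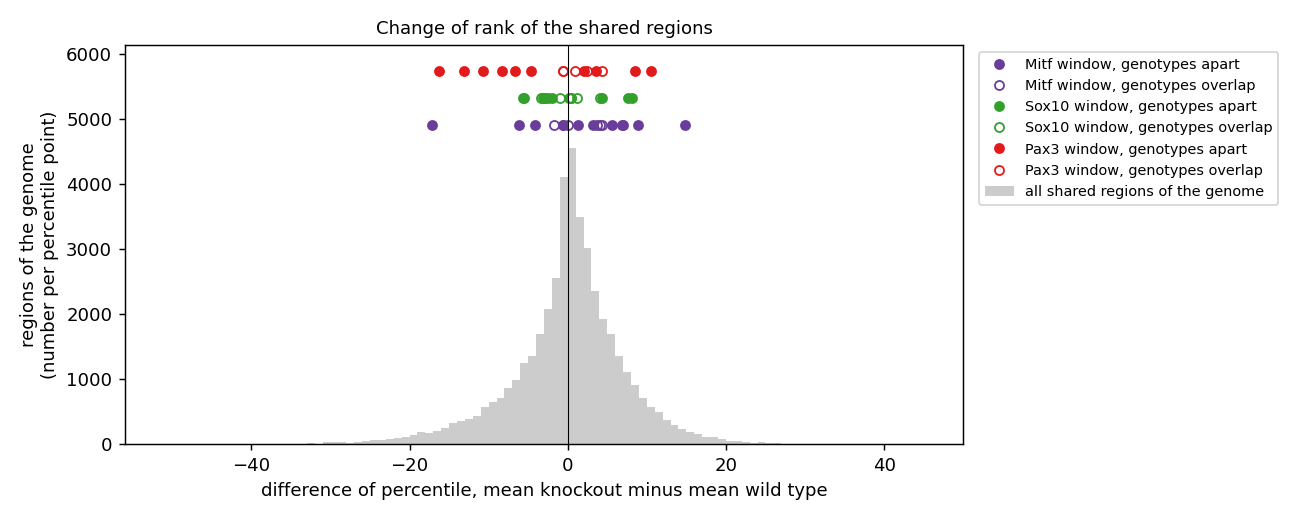
Difference of percentile between the knockout and wild-type means (horizontal axis, percentile points) for the shared regions of the 3 windows, as points above a histogram of the 44000 shared regions of the genome (vertical axis, regions per percentile point). Filled points mark regions in which both libraries of a genotype lie on the same side of both of the other. The points spread on both sides of 0 from −17.2 to 14.8, within the range of the histogram, −53.7 to 45.9.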

How the data were processed

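The 4 ATAC-seq libraries are 2 wild-type and 2 Ssbp4 knockout samples of B16-F10 cells. Peaks were called in each library with MACS2 on GRCm39, per the submitters' processing notes; for versions, aligner, read filters and any Tn5 shift, the sources used here say nothing. The deposited lists give, for each call, the fold (a ratio of summit pileup to local background), the −log10 p-value and q-value, the summit position, and a display score, which the authors also gave and which was left aside.

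Calls on 21 standard chromosomes were converted to 1-based positions and merged where they overlapped by at least 1 bp (Python 3.11.15, pandas 2.3.3, scipy 1.17.1). The strongest call of a library stood for it in a region. Summit pileups and local backgrounds were recovered by solving the fold, (pileup + 1) / (background + 1), and the Poisson tail p-value together; the pileup came within 0.05 of a whole number in 100.0% of calls to the digits given. The genome-wide background was the lowest local one of a library. The functions were tested on simulated lists with known answers.

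Regions described in full were, in each window, the 3 highest-ranked shared regions, those lost, gained or called in 1 or 3 libraries (where 5 or fewer), and the largest change of rank in each direction. The windows, members and lists were chosen with earlier results of these data known. The gene and promoter tables are on GRCm38, and no positions were converted, so start sites, the fixed list of other melanocyte genes and cell type markers were not analysed here. Alternatives were lists of equal length, a −log10 q of at least 5, calls covering 50% of a region, 501 bp windows on summits, ranks by fold or pileup, pairs by replicate number, windows widened by 50 kb and leaving out each library.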

Additional observations from a re-analysis of the deposited data

How the results depend on the processing

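The 50 shared members numbered 48 to 64 in the alternatives, the highest with windows widened by 50 kb. Lost members numbered 5 in the deposited lists, 3 at a −log10 q of at least 5 (8.19% of the genome's regions), 1 with lists of equal length (4.63%) and 6 to 9 with a library left out (8.68% to 14.7%); the short Mitf region at chr6:97982583-97982956 was lost in each of these. Gained members numbered 1, with 0 at the stricter q-value (0.852% of the genome's regions) and 2 to 4 with a library left out (2.37% to 6.58%); with lists of equal length it was another region, since chr1:78218239-78218979 was then called in knockout replicate 1 alone. Leaving out a library loosens these definitions. Lower ranks in the knockout numbered 16, or 20 to 25 with a library left out (34.4% to 39.2% of the genome's shared regions), and higher ranks 14, or 17 to 22 (41.7% to 45.4%). Ranked by fold, 10 were lower and 25 higher, against 27.4% and 34.5% of the genome, so the balance of directions depends on the measure; the cause was not tested. At Sox10 it turned from 6 lower and 3 higher to 2 and 11, and at Pax3 from 6 and 4 to 4 and 7. By fold the differences of the leading Mitf region (1.03) and of 2 leading Sox10 regions (10.1 and 1.73) reversed, and those of 2 leading regions that overlapped between genotypes also changed sign, at Pax3 (8.17) and Mitf (−1.46). Apart from the 3 that reversed, 128 values of single regions moved by no more than the spread between replicates and 19 by more. Those 19 include the sign changes at the 2 leading regions that overlapped. With the replicate number as a block (the same direction in both pairs), 18 were lower and 20 higher, against 32.3% and 40% of the genome; deviations of same-numbered libraries correlated with r = 0.17 over 44000 regions, and the labels give no shared origin for a number, so it was not used to pair libraries. Read numbers were not used, so the part of depth in the 26 members that were not shared was not tested.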
